A study of Mus musculus with 8 samples.

Results

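The Notch pathway lets neighbouring cells signal by direct contact, and 10 of its genes were followed here through the open chromatin of mouse bone marrow stromal cells. The genes were the receptors *Notch1*, *Notch2*, *Notch3* and *Notch4*, the ligands *Jag1*, *Jag2*, *Dll1* and *Dll4*, and the transcriptional targets *Hes1* and *Hey1*. They were taken by name and are 10 of 22380 protein-coding genes and of 37310 genes of all types in the GENCODE vM1 annotation of mm9, the mouse genome build of the files. The assay was ATAC-seq, which reads open chromatin through the places where Tn5 transposase can insert its adapters. The cells came from the bone marrow of wild type C57BL/6J mice at 6 weeks after birth, and no library differed from another in strain, genotype, age or tissue by its labels. The libraries carried the titles ATAC1 to ATAC7, with 1 library for each title, beside an Input library that served as the common control. The study sorted CD31-, CD45- and Ter119- marrow cells into subpopulations by surface markers, but the labels do not link a title to a sorted population, so libraries are called by their titles throughout. No value below has a replicate, no test between libraries is possible, and a difference is between single libraries.

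In Notch signalling a Jagged or Delta-like ligand on the surface of a cell binds a Notch receptor on its neighbour. The receptor is then cut by an ADAM protease and by the gamma-secretase complex, and its inner part enters the nucleus, where it joins the DNA-binding protein RBPJ and a Mastermind coactivator to switch on genes of the Hes and Hey families. In bone marrow the pathway is known for contacts between the niche and blood-forming cells and for its control of the step from skeletal progenitors to osteoblasts.

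A peak was counted at a start site when its centre lay within 1000 bases of the first base of any annotated transcript of the gene. A peak was counted around a gene when it lay in it or within 20 kb of it. Each peak has a fold over Input, the authors' ratio of scaled library reads to Input reads in a wider region around the peak, and a rank in its own list. The lists held from 15188 peaks in ATAC7 to 32280 in ATAC2, and the median fold of a gene's best start-site peak over protein-coding genes ran from 6.10 in ATAC7 to 12.8 in ATAC5. Levels are therefore also given relative to that median of the same library. The label of the cells was checked by lists of 12 marker genes for each of 3 cell classes. Stromal markers had a start-site peak for 3, 6, 2, 2, 7, 5 and 5 of 12 genes in ATAC1 to ATAC7 in order, where 49%, 50.2%, 43.5%, 43.6%, 52.7%, 51.5% and 42% of protein-coding genes had one. Of these markers *Nt5e* had a start-site peak in 7 libraries, *Col1a1* in 6, *Pdgfra* and *Pdgfrb* in 5 each, *Col1a2* in 4, *Cxcl12* in 2 and *Twist2* in 1, and *Lepr*, *Prrx1*, *Ly6a*, *Thy1* and *Col3a1* had it in none. Blood cell markers, of which 11 were found in the annotation, had 7, 2, 6, 4, 7, 4 and 2 genes with a start-site peak, and endothelial markers had 0, 1, 0, 0, 5, 2 and 0. The part of other cells in the values of the Notch genes was not tested.

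Of the 10 genes, 5 had a start-site peak in all 7 libraries (*Notch1*, *Notch2*, *Notch4*, *Hes1* and *Hey1*), 3 had it in some libraries (*Jag1*, *Jag2* and *Dll1*) and 2 had it in none (*Notch3* and *Dll4*). Over all protein-coding genes, 36.8% had a start-site peak in all libraries and 43.4% in none, so the genes called everywhere were 5 of 10 against a background of that size. By library, 7 of the 10 genes had a start-site peak in ATAC1, where 49% of protein-coding genes had one. The number was 6 in ATAC2 (50.2% of protein-coding genes), 6 in ATAC3 (43.5%), 6 in ATAC4 (43.6%), 7 in ATAC5 (52.7%), 8 in ATAC6 (51.5%) and 6 in ATAC7 (42%). The 3 genes called in some libraries were all ligands, and 19.8% of protein-coding genes were called in 1 to 6 libraries. Each library pools many cells, so a site open in fewer cells and a site less open in each cell cannot be told apart.

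The count rests on which transcript starts are used. At the annotated 5′ end of the gene alone, 3 of the 10 genes had a peak in all libraries (*Notch2*, *Hes1* and *Hey1*) and 4 in none, against 34.4% and 46.3% of protein-coding genes. At the starts of protein-coding transcripts alone, a setting chosen after the data were seen, the genes called in all libraries were *Notch1*, *Notch2* and *Hey1*, and 36.4% of protein-coding genes had such a peak in all libraries and 43.9% in none. *Notch1*, *Notch4*, *Hes1* and *Dll1* are the genes for which these rules differ, and each is described below with the transcript concerned.

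**Figure D1:**
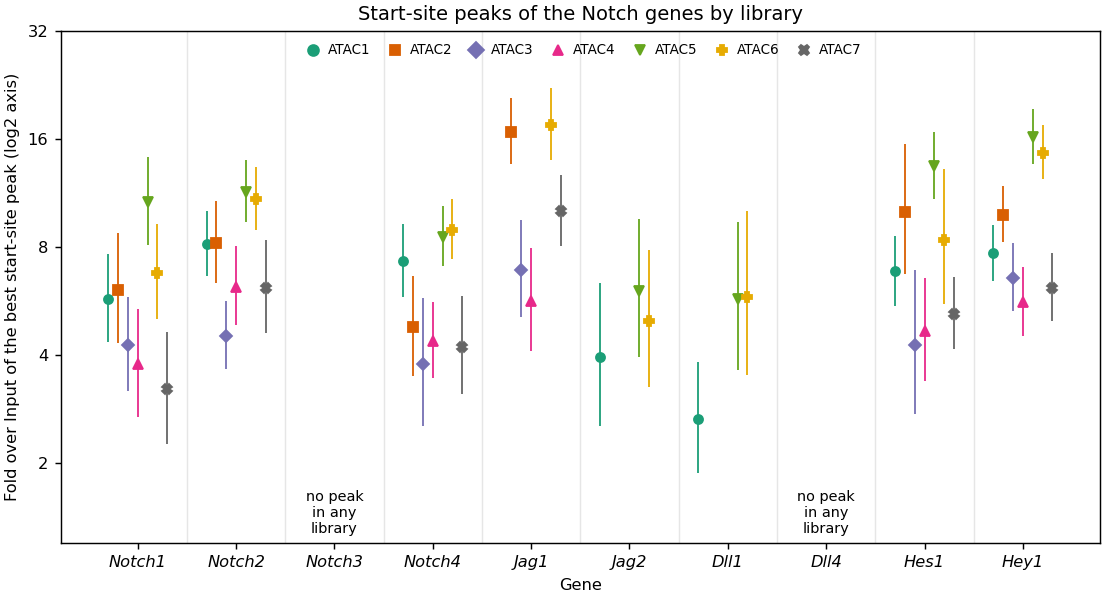
Fold over Input of the best start-site peak of each gene (horizontal axis) in each library (marker shape and colour), on a log2 axis, with bars for the 95% interval from counting error alone. *Notch3* and *Dll4* have no start-site peak, *Jag2* and *Dll1* have 3 low ones each, and *Jag1* has the highest value of the figure, 17.6 in ATAC6, while ATAC1 and ATAC5 are missing.

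*Notch2* encodes a receptor and is the longest of the 10 genes (chr3:97817461-97954290, plus strand). Its start site carried a peak in every library, between 4.53-fold over Input in ATAC3 and 11.4-fold in ATAC5. The other libraries were at 8.16-fold in ATAC1, 8.21-fold in ATAC2, 6.205-fold in ATAC4, 10.9-fold in ATAC6 and 6.16-fold in ATAC7. These folds rose and fell with the library's own median: relative to it the peak stood between 0.741 in ATAC3 and 1.01 in ATAC7. In reads, the outer regions held from 307 library reads against 55 Input reads in ATAC7 to 788 against 114 in ATAC6. The peak always lay among the top 20% of its list, from 9.94% in ATAC1 to 19.9% in ATAC3. The 250 bases before the start site are shown because all 7 peak centres lay within 92 bases upstream of it. Capitals mark GGGCGG or its reverse complement, the core that Sp and KLF factors are known to bind, which was present in the 300-base start-site windows of 43.4% of protein-coding genes.
Notch2 upstream (mm9, chr3:97817211-97817460, plus strand): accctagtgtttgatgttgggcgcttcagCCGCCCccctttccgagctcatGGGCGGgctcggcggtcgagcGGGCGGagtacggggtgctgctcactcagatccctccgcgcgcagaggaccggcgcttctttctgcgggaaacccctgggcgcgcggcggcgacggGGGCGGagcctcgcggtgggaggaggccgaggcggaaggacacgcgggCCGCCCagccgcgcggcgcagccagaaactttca

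*Notch1* (chr2:26313423-26372183, minus strand) encodes the receptor best known from the development of T cells. All of its start-site peaks lay around base 26359342, the start of 2 protein-coding transcripts that is 12841 bases inside the annotated gene, and no library had a peak centre within 1000 bases of the outermost 5′ end. The peak of 6 libraries nearest to that outer end was this internal one, and in ATAC5 it was a small intronic peak 8920 bases away. From ATAC1 to ATAC7 in order, the folds at the internal start were 5.73, 6.09, 4.27, 3.77, 10.7, 6.78 and 3.21. All 7 were under the library's median, at 0.526 to 0.837 of it. The highest-to-lowest ratio of the folds was 3.33, and the intervals of ATAC5 (8.13 to 14.3) and ATAC7 (2.26 to 4.63) did not overlap. Those intervals are of folds not scaled by the library's median. Relative to it the same libraries were still highest and lowest but nearer to each other, at 0.837 and 0.526. Upstream of this internal start 5 copies of GGGCGG stood between bases -78 and -15, with the start site as base 0, in capitals in the sequence that follows, whereas the window at the outer 5′ end had none.
Notch1 internal start, upstream (mm9, chr2:26359343-26359592, minus strand): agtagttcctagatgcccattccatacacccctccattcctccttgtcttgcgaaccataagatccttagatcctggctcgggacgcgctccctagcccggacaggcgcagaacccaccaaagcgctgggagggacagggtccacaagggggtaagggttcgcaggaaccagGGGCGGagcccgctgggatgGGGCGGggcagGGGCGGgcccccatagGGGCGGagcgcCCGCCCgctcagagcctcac

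The other receptors had no peak at the start of a protein-coding transcript in any library. *Notch4* (chr17:34701213-34725448, plus strand), a receptor known from the endothelium, was called in all 7 libraries through 2 processed transcripts that begin 22677 and 22773 bases from its 5′ end, near the 3′ end of the gene. A peak each of ATAC2 and ATAC4 also lay within 1000 bases of a retained-intron transcript that begins 22007 bases from the 5′ end. The region called there in all libraries lay over a coding exon (chr17:34724245-34724599), and the nearest start site of another gene, *Gpsm3*, was 2205 to 2689 bases from the peak centres. Its best fold in each library was 7.31, 4.80, 3.78, 4.39, 8.56, 8.95 and 4.23 from ATAC1 to ATAC7, and each was under the library's median. At the 5′ end of *Notch4*, where its protein-coding transcript begins, no library had a peak. *Notch3* (chr17:32257765-32303825, minus strand), a receptor of mural cells, had 1 region in all of its 46061 bases and 20 kb on either side. This region over a coding exon was called in ATAC2 with 45 reads against 11 in Input and in ATAC5 with 63 against 12. In the other 5 libraries the nearest peak to the *Notch3* start site was 75307 to 75438 bases away. A missing peak means that the authors' limit was not reached, and reads outside peaks were not analysed here.

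*Jag1* (chr2:136907192-136942380, minus strand) encodes a Jagged ligand known from marrow stroma and endothelium. Its start-site peak was absent from ATAC1 and ATAC5 and strong in ATAC2, ATAC6 and ATAC7. In ATAC2 it held 1030 reads against 97 in Input, at 16.8-fold (95% interval 13.6 to 20.9), and ranked 700 of 32280. ATAC6 had 926 reads against 83 (17.6-fold), and ATAC7 had 775 against 85 (10.1-fold). ATAC3 had 336 reads against 49 (6.92-fold) and ATAC4 had 230 against 46 (5.66-fold). Relative to the library's median these were 1.84, 1.42, 1.65, 1.13 and 0.867, so 4 of the 5 stood above a usual start-site peak of their library. The lists of ATAC1 and ATAC5 held 24510 and 31479 peaks.

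In ATAC1 and ATAC5 the nearest peak to the *Jag1* start lay inside the gene, 1904 and 1664 bases away, in an intron. That intronic region (chr2:136940287-136940995) was called in 6 libraries, ATAC4 being the exception, with folds from 3.39 to 8.37 and the highest in ATAC5. These folds are not relative to the library's median, which was itself highest in ATAC5 at 12.8. Of 1753 protein-coding genes with a start-site peak in the top 5% of ATAC2, 25 had none in ATAC1, 45 had none in ATAC5 and 6, *Jag1* among them, had none in both. A further 11 protein-coding genes had start-site peaks in exactly the same 5 libraries as *Jag1*. The ones nearest to it in fold were *Prdm15*, *Cdk9* and *Cct4*, with mean absolute log2 fold differences of 0.41, 0.54 and 0.54 over 5 libraries. The window that decides a start site mattered here. With peak centres within 500 bases 3 libraries had the *Jag1* peak, and with 2500 bases all 7 had a peak, since the intronic region then counted.

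**Figure D2:**
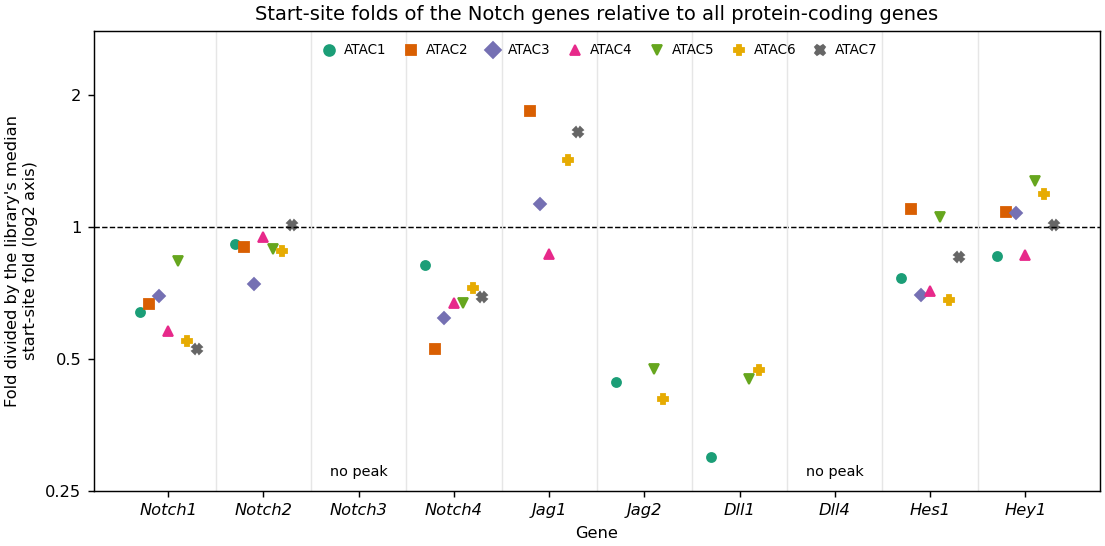
Fold over Input of the best start-site peak of each gene (horizontal axis) divided by the median of the best start-site peaks of protein-coding genes in the same library, on a log2 axis. The dashed line marks the median, and *Jag1* reaches 1.84 in ATAC2 while *Notch1*, *Notch4*, *Jag2* and *Dll1* lie under the line in every library that has them.

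The best *Jag1* peaks of ATAC2, ATAC4, ATAC6 and ATAC7 were centred 651 to 743 bases upstream of the start site, in a single region (chr2:136942813-136943303). ATAC3 had its best peak nearer to the start, centred 311 bases upstream of it. The 300 bases at the centre of the region are shown because the 3 highest *Jag1* start-site folds lay there, and they held 2 copies of TGGGAA or its reverse complement, the core sequence that RBPJ is known to bind, in capitals. In windows of this length centred on all regions at start sites, 20.6% held that core.
Jag1 promoter region (mm9, chr2:136942909-136943208, plus strand): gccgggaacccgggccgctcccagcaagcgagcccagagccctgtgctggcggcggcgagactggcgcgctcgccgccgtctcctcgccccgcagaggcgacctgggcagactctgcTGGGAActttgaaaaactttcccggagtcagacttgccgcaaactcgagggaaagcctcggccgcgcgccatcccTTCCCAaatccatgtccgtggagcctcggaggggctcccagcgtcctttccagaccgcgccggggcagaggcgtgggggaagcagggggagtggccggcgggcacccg

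*Jag2* and *Dll1* each had start-site peaks in ATAC1, ATAC5 and ATAC6 and in no other library. *Jag2* (chr12:114146801-114167706, minus strand), the other Jagged ligand, had 87 reads against 27 in ATAC1 (3.96-fold), 99 against 28 in ATAC5 (6.05-fold) and 92 against 29 in ATAC6 (4.99-fold). *Dll1* (chr17:15504318-15513836, minus strand), a Delta-like ligand, had 104 against 48 in ATAC1 (2.66-fold), 84 against 25 in ATAC5 (5.75-fold) and 74 against 20 in ATAC6 (5.82-fold). These were weak peaks, at 0.298 to 0.473 of the library's median and in the lower part of their lists, from 58.9% to 85.6% of the way down. *Dll1* peaks lay at the start of its protein-coding transcript, 896 bases inside the annotated 5′ end. When each list was cut to its 15188 best-ranked peaks, *Jag2* kept 1 library and *Dll1* kept 0, so both depend on the length of the list.

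Each of the pair shared this pattern of libraries with 104 other protein-coding genes, the other of the pair included. Nearest in fold to *Jag2* were *Narg2*, *Ubl7* and *Zcchc10* (mean absolute log2 differences of 0.12 to 0.13 over 3 libraries), and nearest to *Dll1* were *Osbp2*, *Tox3* and *Helz* (0.09 to 0.23). Beside the ligands, the endothelial markers with a start-site peak were most frequent in ATAC5, with 5 of 12, and stood at 2 in ATAC6 and 0 in ATAC1, against 52.7%, 51.5% and 49% of protein-coding genes in these libraries. Blood cell markers numbered 7 of 11 in ATAC1 and in ATAC5 and 4 in ATAC6. The 5 endothelial markers in ATAC5 were *Pecam1*, *Kdr*, *Erg*, *Egfl7* and *Esam*, of which ATAC6 had *Erg* and *Egfl7*. The remaining endothelial markers, *Cdh5*, *Tek*, *Tie1*, *Emcn*, *Sox17*, *Flt1* and *Robo4*, were without a start-site peak in all 7 libraries.

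*Dll4* (chr2:119151520-119161698, plus strand), the Delta-like ligand of arterial endothelium, lacked a start-site peak throughout. The nearest peak to its 5′ end lay at 1026 bases in ATAC1, at the start of *Gm14207*, and 11916 to 12323 bases away in the other libraries. It did have a region downstream of the gene, centred 1968 bases beyond its 3′ end, that was called in all 7 libraries (chr2:119163404-119163928). There ATAC5 had 390 reads against 75 (8.90-fold), ATAC6 had 304 against 74 (6.47-fold) and ATAC1 had 255 against 76 (4.12-fold). ATAC2, ATAC3, ATAC4 and ATAC7 were at 3.53-, 3.06-, 2.51- and 2.50-fold with 125 to 182 reads. ATAC5 thus stood highest, and its interval (6.94 to 11.6) overlapped that of ATAC6 (5.002 to 8.46) and of no other library. Those intervals cover counting error only. They are of folds not scaled by the library's median, which was itself highest in ATAC5 at 12.8. Relative to each library's own median ATAC5 was still highest at 0.696, but the libraries were nearer to each other. ATAC6 was at 0.524, ATAC3 at 0.5003, ATAC1 at 0.461 and ATAC7 at 0.4101, with ATAC2 and ATAC4 lowest at 0.386 and 0.385. The 7 called peaks did not cover the same stretch: that of ATAC2 (chr2:119163843-119163928) lay beyond the central 300 bases and that of ATAC3 (chr2:119163778-119163879) reached only their end. The central bases are shown with TGTGGT, the RUNX core, in capitals.
Dll4 downstream region (mm9, chr2:119163517-119163816, plus strand): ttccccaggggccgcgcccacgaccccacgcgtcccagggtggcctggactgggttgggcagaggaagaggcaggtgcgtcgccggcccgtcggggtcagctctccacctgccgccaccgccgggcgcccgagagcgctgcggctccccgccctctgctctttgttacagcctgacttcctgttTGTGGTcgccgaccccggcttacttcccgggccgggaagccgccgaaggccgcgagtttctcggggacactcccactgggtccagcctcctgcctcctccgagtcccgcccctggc

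Both target genes were open at their start sites in every library. *Hey1* (chr3:8663362-8667039, minus strand), a repressor of the Hes-related family, had a start-site region with a mean rank in the top 10.4% of the lists, from 3.79% in ATAC2 to 18.2% in ATAC4 for its best peak. ATAC5 and ATAC6 were highest at 16.3- and 14.7-fold, followed by ATAC2 at 9.86-fold and ATAC1 at 7.68-fold, and ATAC3, ATAC7 and ATAC4 stood at 6.58-, 6.18- and 5.63-fold. Relative to the median they were 0.860 to 1.27, above it in 5 of 7 libraries. Of the 10 genes, *Hey1* alone kept its peak in all libraries at a fold of at least 5. A further region over a coding exon 2246 bases inside *Hey1* was also called in all 7 libraries, at 6.15- to 18.1-fold with 59 to 233 reads. Its highest fold was again in ATAC5, but its best rank was in ATAC2. These folds are not scaled by the library's median, which was itself highest in ATAC5 at 12.8.

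The first 30 bases of the *Hey1* transcript are printed because they hold 2 copies of the RBPJ core in 1 orientation, in capitals. With the start site as base 0, they stood at bases 2 to 7 and 19 to 24.
Hey1 first bases (mm9, chr3:8667010-8667039, minus strand): caTGGGAAggggcgcagcgTGGGAAaggga
In no library did a called peak cover either copy, since the best peaks were centred 193 to 290 bases upstream, but the outer region of the peak covered both in all 7.

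*Hes1* (chr16:30064470-30067882, plus strand), the canonical Notch target and itself a repressor, had the most crowded surroundings. With 9 regions in 43.4 kb it had 20.7 regions per 100 kb, more than 97.8% of protein-coding genes, whose median was 3.28. Several of the regions lay close together: with peaks up to 500 bases apart joined, a setting chosen after the data were seen, *Hes1* had 5 regions, or 11.5 per 100 kb, above 95.1% of protein-coding genes (median 2.47). Of the 9 regions, 5 lay at start sites of *Hes1* transcripts. The best start-site peak reached 13.5-fold in ATAC5, 10.04-fold in ATAC2 and 8.39-fold in ATAC6, and it was at 6.85-, 5.21-, 4.67- and 4.28-fold in ATAC1, ATAC7, ATAC4 and ATAC3. Relative to the library's median the order changed: the peak was highest in ATAC2 at 1.10, followed by ATAC5 at 1.05, and lowest in ATAC6 at 0.680. It was not the same element in each: in ATAC1, ATAC4, ATAC5 and ATAC7 it lay upstream of the annotated 5′ end, and in ATAC2, ATAC3 and ATAC6 around the start of the protein-coding transcript, 956 bases further in. The region around that coding start (chr16:30065263-30065754) was called in 6 libraries, ATAC4 being the exception. ATAC3 and ATAC6 were the libraries without a peak at the upstream element (chr16:30063788-30064483).

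The 250 bases before the coding start of *Hes1* are printed because they hold a pair of RBPJ cores in the same orientation, in capitals, at bases -80 to -75 and -66 to -61. The promoter of *Hes1* is known for RBPJ sites through which Notch acts on it. Called peaks covered both copies in 5 libraries, ATAC1, ATAC2, ATAC3, ATAC5 and ATAC6, and outer regions covered them in 6.
Hes1 coding start, upstream (mm9, chr16:30065176-30065425, plus strand): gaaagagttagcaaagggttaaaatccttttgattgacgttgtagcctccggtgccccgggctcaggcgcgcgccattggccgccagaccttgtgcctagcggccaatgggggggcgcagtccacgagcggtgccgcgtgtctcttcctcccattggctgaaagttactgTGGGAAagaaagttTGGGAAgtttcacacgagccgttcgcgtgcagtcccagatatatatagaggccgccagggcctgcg
The short core TGGGAA occurred on either strand in 24.3% of the 300-base start-site windows of protein-coding genes, and the longer GTGGGAA, which contains it, in 5.885%. *Hes1* at its coding start and *Hey1* held both forms, each with 2 short cores. The *Notch1* outer 5′ end held 1 short core, at bases -34 to -29, which was also the longer form. *Notch3* and the annotated 5′ end of *Hes1* held 1 short core, and *Notch2*, *Notch4*, *Jag1*, *Jag2*, *Dll1* and *Dll4* held none in the window at the 5′ end. A match of letters is a description and not a bound site.

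Peaks in and around the 10 genes numbered 39 in ATAC5, 37 in ATAC6, 34 in ATAC2 and 30 in ATAC1, and ATAC3, ATAC7 and ATAC4 had 26, 23 and 21. As a share of each list they ran from 0.105% (95% Clopper-Pearson interval 0.0730 to 0.147) in ATAC2 to 0.162% (0.106 to 0.238) in ATAC3. All 7 intervals overlapped, but they cover counting error only and their overlap is not a test. No conclusion on a difference in share is drawn. Peaks at start sites of the 10 genes were 9 to 11 in each library. The spread came from peaks away from any start site, 4 in ATAC4, 9 in ATAC3 and ATAC7, 12 in ATAC1, 18 in ATAC2, 20 in ATAC5 and 21 in ATAC6. Those were 19.0% to 56.8% of the peaks around the genes, and over whole lists the share away from start sites ran from 24.3% in ATAC4 to 53.4% in ATAC2.

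**Figure D3:**
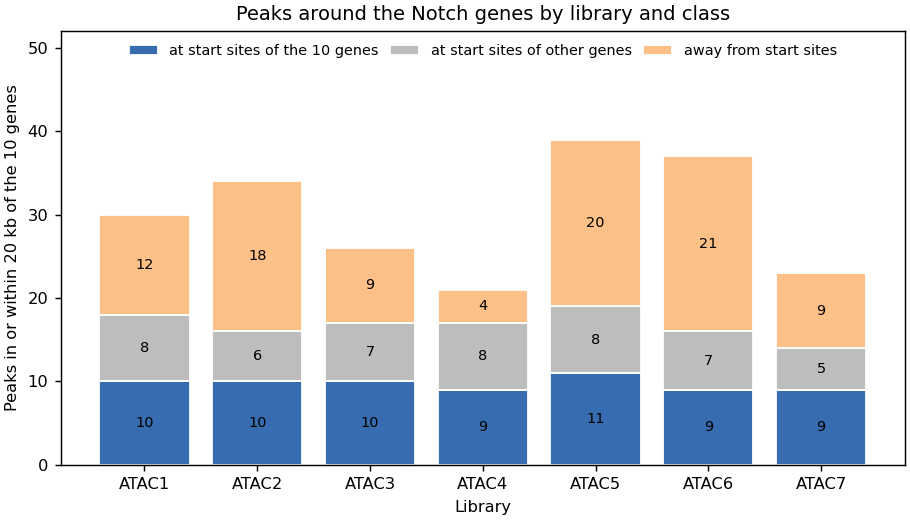
Number of peaks in or within 20 kb of the 10 genes (vertical axis) in each library, stacked by class: at start sites of the 10 genes, at start sites of other genes, and away from start sites. Start-site peaks of the 10 genes stay between 9 and 11, while peaks away from start sites go from 4 in ATAC4 to 21 in ATAC6.

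Merging overlapping peaks of all libraries gave 67 regions around the 10 genes. Of these, 19 lay at their own start sites, 11 at start sites of other genes and 37 away from both. Regions called in all libraries were 11 of 67, against 16.6% of 50683 merged regions, and regions called in 1 library were 25 of 67, against 40.9%. Away from start sites 3 of 37 were common to all libraries, the *Dll4* downstream region and the *Hey1* exon region among them, and 16 were in 1 library, of which 5 were in ATAC5, 4 in ATAC1, 4 in ATAC6, 2 in ATAC2, 1 in ATAC3 and 0 in ATAC4 and ATAC7. With peaks up to 500 bases apart joined, 26 regions were left away from start sites, and 8 of them were in 1 library. The shares of 16.6% and 40.9% are for all merged regions, those at start sites included. No such share is given for regions away from start sites alone, joined or not, so those counts stand without a background.

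*Notch2* held 18 of the 37 regions away from start sites, 16 of them in introns. ATAC6 had 12 peaks around the gene, ATAC2 had 10 and ATAC5 had 8, and the other 4 libraries had 2 to 4. Beyond 60 kb from the start site, a bound set after the positions were seen, 8 of 9 regions were called in ATAC2, ATAC5 or ATAC6 only, as were 61.6% of all 30238 regions away from start sites, and ATAC7 shared the remaining region with ATAC6. ATAC1, ATAC3 and ATAC4 had no peak in that stretch. The peak with the highest fold of all peaks around the 10 genes stood in an intron. A region 43.6 kb from the start (chr3:97860936-97861266) had 307 reads against 11 in ATAC2 (44.1-fold, interval 24.3 to 89.3, 32.4% of the way down its list), 145 against 7 in ATAC1 (25.4-fold) and 117 against 4 in ATAC3 (29.4-fold). The adjoining region, 43.1 kb from the start (chr3:97860210-97860934), was called in ATAC3, ATAC4, ATAC6 and ATAC7, with up to 457 reads against 36 in ATAC6 (19.98-fold). Joined, they were called in 6 libraries, and ATAC5 had no peak there. The central bases of the first region are shown for its fold, with the RUNX core ACCACA or TGTGGT and the AP-1 core TGANTCA in capitals.
Notch2 intronic region (mm9, chr3:97860952-97861251, plus strand): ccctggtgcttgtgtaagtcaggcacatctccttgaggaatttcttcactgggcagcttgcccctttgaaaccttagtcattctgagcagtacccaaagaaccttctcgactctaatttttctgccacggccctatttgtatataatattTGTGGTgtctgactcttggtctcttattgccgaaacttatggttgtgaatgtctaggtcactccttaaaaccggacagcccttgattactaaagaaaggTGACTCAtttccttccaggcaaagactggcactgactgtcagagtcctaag

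**Figure D4:**
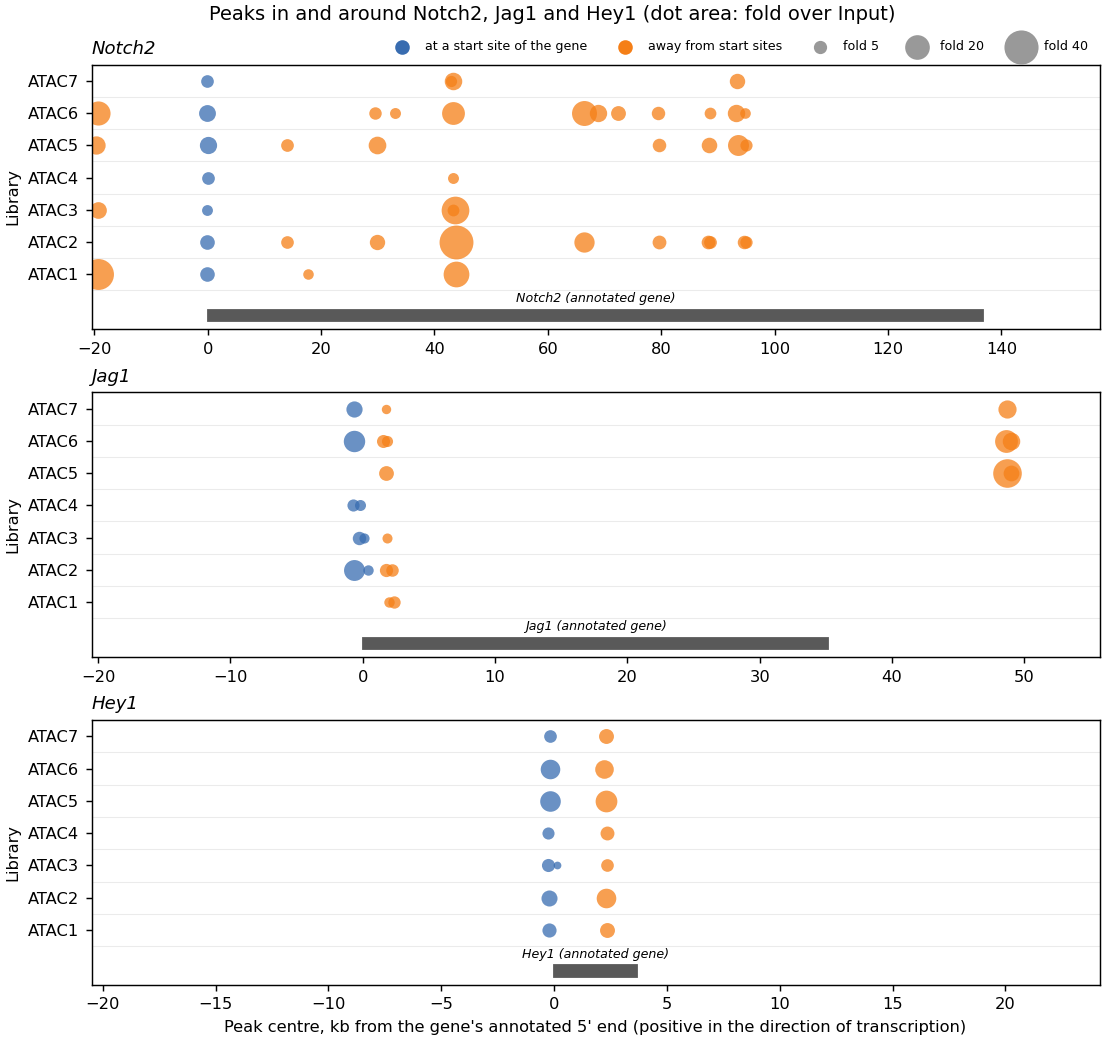
Peaks in and within 20 kb of *Notch2*, *Jag1* and *Hey1*, by distance of the peak centre from the gene's annotated 5′ end in kb (horizontal axis) and by library (rows), with dot area proportional to the fold over Input and the grey bar for the gene. *Notch2* shows intronic peaks in ATAC2, ATAC5 and ATAC6 beyond 60 kb, *Jag1* lacks start-site peaks in ATAC1 and ATAC5, and *Hey1* has a peak at its start site and another inside the gene in all libraries.

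A *Notch2* region centred 19282 bases upstream of the gene was called in ATAC1, ATAC3 and ATAC6, where ATAC1 had 60 reads against 2 (36.7-fold, interval 9.77 to 311). ATAC5 had a peak of 150 reads against 20 (12.8-fold) beside it, centred 19641 bases upstream, so that joined they were called in 4 libraries. *Jag1* had a pair of neighbouring regions 13464 and 13780 bases beyond its 3′ end. The nearer was called in ATAC5 (110 reads against 6, 31.3-fold), ATAC6 (114 against 9, 19.9-fold) and ATAC7 (46 against 4, 12.7-fold), and the farther in ATAC5 at 9.56-fold and ATAC6 at 11.7-fold. ATAC5, which had no *Jag1* start-site peak, was thus called at both. The farther region is printed because the cores of all 3 families, RBPJ, RUNX and AP-1, stood close together in it.
Jag1 distal region (mm9, chr2:136893263-136893562, plus strand): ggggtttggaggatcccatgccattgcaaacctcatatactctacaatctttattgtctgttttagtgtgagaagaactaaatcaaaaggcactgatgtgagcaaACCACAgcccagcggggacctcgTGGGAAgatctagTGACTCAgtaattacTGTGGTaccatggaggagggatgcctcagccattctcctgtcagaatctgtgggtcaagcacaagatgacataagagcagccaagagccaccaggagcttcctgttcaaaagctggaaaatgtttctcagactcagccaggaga
*Notch1* had 5 intronic regions, all in 1 to 3 libraries, with 48 to 150 reads. *Jag2* had a region downstream of the gene that was called in 6 libraries, ATAC4 being the exception, at 4.07- to 14.7-fold. *Dll1* had a single region of 39 bases upstream of its start, in ATAC5 only.

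Over the 37 regions away from start sites, 9 held the RBPJ core, 24.3% against 28.8% of all such regions. AP-1 was in 12 of 37 (32.4% against 30.1%) and RUNX in 10 of 37 (27.0% against 30.7%). The Sp and KLF core GGGCGG was in 11 of 37 (29.7% against 13.1%) and the ETS core CCGGAA in 1 of 37 (2.70% against 6.38%). At start sites of the 10 genes, 8 of 19 regions held the RBPJ core, 42.1% against 20.6% of all regions at start sites, but the windows of neighbouring regions in part overlap. The base composition at the 5′ ends varied widely: G and C made up 86% of the *Jag2* window, 75% at *Hey1*, 73% at *Notch2* and 71% at *Hes1*, and 54.3% at *Dll1*, against a median of 55% over protein-coding genes.

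The other genes of the pathway were given by a list of 34. Of these, 20 had a start-site peak in all libraries, 11 in some and 3 in none, against 36.8%, 19.8% and 43.4% of protein-coding genes. By library the number was 28, 27, 25, 24, 28, 27 and 23 from ATAC1 to ATAC7, where 49%, 50.2%, 43.5%, 43.6%, 52.7%, 51.5% and 42% of protein-coding genes had one. Several genes that carry the signal from receptor to nucleus were called in all libraries. *Rbpj* had 5.96- to 18.4-fold, the coactivator *Maml1* 5.76- to 17.4-fold, and the proteases *Adam10* and *Adam17* 8.56- to 17.9-fold and 6.53- to 16.3-fold. The gamma-secretase genes *Psenen*, *Ncstn*, *Aph1a* and *Aph1b* had a peak in every library, as did *Numb* and *Numbl*, which restrain the receptor.

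Among targets, *Heyl* lacked a peak in ATAC3 and ATAC7 and *Nrarp*, a feedback inhibitor, in ATAC4 and ATAC7, with folds of at most 6.97 and 6.95 elsewhere, and *Hes5* had none in any library. *Hey2* was called in all, and so was *Hes6*, which is listed here as a gene of the Hes family and not as a target. Among ligands, *Dll3* was called in ATAC5 only (73 reads against 42), *Dlk2*, a non-canonical ligand, in ATAC6 only (46 against 19), and *Dlk1* in none. The glycosyltransferases that modify the receptor were split, with *Lfng* in all libraries, *Rfng* in all but ATAC7 and *Mfng* in ATAC1 only (57 reads against 12). *Maml3* lacked a peak in ATAC4 and *Maml2* had none. Of the Deltex genes, which act on Notch trafficking, *Dtx1* was called in ATAC1 only, *Dtx2* in all but ATAC3, and *Dtx3* in ATAC2, ATAC3, ATAC5 and ATAC6. *Dtx4* had 5.2- to 18.1-fold with 372 to 1228 reads in 6 libraries and no start-site peak in ATAC6.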

How the data were processed

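ATAC-seq libraries were made from marrow stromal cells with Tn5 and sequenced beside an Input library. The extraction text of the labels describes RNA, so the study's methods were followed for how the files were made. The authors used bowtie for alignment to mm9 and CisGenome's two-sample mode for peaks of each library against Input, with a p-value limit of 1e-05 and an FDR under 0.01. The submitters' processing notes also name DiffBind and bedtools. Whether reads were shifted for Tn5 or filtered for duplicates is not given in the sources used here. The deposited tables have no header, and columns were identified from the values. They give the authors' counts of library and Input reads in the outer region of each peak, and the authors' fold, a ratio equal to a scale factor times library reads over Input reads plus 0.01. The deposited signal columns, which are statistics of the peak caller, were not used. The separate coordinate lists equal the tables and were not used. Total reads per library are not in the tables, so depth is known only per peak (median 111 to 169 library and 21 to 34 Input reads).

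Genes and transcripts came from GENCODE vM1. The build of the sequence in use, NCBIM37, is mm9, and no peak passed a chromosome end. A peak centre within 1000 bases of a transcript start made a start-site peak. Peaks sharing at least 1 base were merged into regions. Motifs were searched on both strands in 300-base windows (250 bases before to 50 after a start site, or centred on a region): RBPJ TGGGAA and GTGGGAA, RUNX TGTGGT, AP-1 TGANTCA, Sp/KLF GGGCGG and ETS CCGGAA. Intervals are 95% and exact: conditional for a ratio of reads, Clopper-Pearson for a share. They cover counting error only, and reads without molecular identifiers are not independent molecules.

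All 10 genes are named, other pathway genes when called in 0 to 6 libraries (those called in all 7 serve as examples), and for ligands called in part the 3 genes nearest in fold with the same libraries. Regions with printed sequence are those called in most libraries, or those with the RBPJ core or the highest fold. The genes, lists and rules were chosen with earlier results of these data known, and the windows at protein-coding starts were added after the data were seen. A few items are not reported here. No test was made, since each title has 1 library. Merging and start-site steps were tested on simulated peaks with known answers. Tools were scipy 1.17.1, pandas 2.3.3, numpy 2.4.6 and matplotlib 3.10.9, run in Python 3.11.15.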

Additional observations from a re-analysis of the deposited data

How the results depend on the processing

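No paired analysis was possible because the titles have no replicates and no result comes from a test. At a fold of at least 5 the genes with a start-site peak fell to 2 in ATAC3 and 3 in ATAC4, those called in all libraries fell from 5 to 1, peaks around the genes fell to 19 in ATAC1, 9 in ATAC3, 8 in ATAC4 and 13 in ATAC7, and regions numbered 5 in all libraries and 16 in 1 library. At gene 5′ ends alone ATAC1 had 4 genes and 3 were called in all libraries, as at protein-coding starts alone (3, added after seeing the data). With the 15188 best peaks of each list, peaks around the genes were 22, 22, 26, 20, 19, 20 and 23 from ATAC1 to ATAC7, and 13 regions were in 1 library. Inside the genes only there were 14, 21, 12, 7, 19, 19 and 11 peaks from ATAC1 to ATAC7, and 13 in ATAC4 without peaks at start sites of other genes. Regions in 1 library were 10 with outer regions and 10 with peaks up to 500 bases apart joined. The counts of other pathway genes stayed within 1.5 times under each alternative run. The median ratio of highest to lowest start-site fold was 2.70, 2.78 with 5 Input reads added and 2.30 for library reads per 1000 bases without Input. Peak lists limit what can be said: a gene without a peak may have reads under the authors' limit, and the fold is measured against a single Input.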
